A study of Mus musculus with 80 samples.

Results

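The lung response to 40 ppm styrene was compared between 2 kinds of mice, CD-1 and C57Bl/6 wild type (WT). The comparison used the 20 arrays, of 80 in the series, that the labels place in these 2 strains at 0 or 40 ppm. For each gene the 40 ppm change in WT was subtracted from the 40 ppm change in CD-1, so that a positive difference means that CD-1 moved up more, or down less, than WT. Each of the 4 groups held 5 biological replicates: CD-1 breathing air (0 ppm), CD-1 breathing 40 ppm styrene, WT breathing air and WT breathing 40 ppm styrene. All were adult males from Taconic with no transgene or deletion named in the labels. Each mouse had 1 exposure of 6 h, whole lungs were taken the morning after it, and the RNA was read on Affymetrix arrays. The labels name no exposure session or array batch, and strain cannot be told apart from either. CD-1 is an outbred stock, whose mice differ from each other genetically, and C57Bl/6 is an inbred strain.

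Styrene is an aromatic solvent used to make plastics and rubber. Cytochrome P450 enzymes oxidize it in the lung, and in mice CYP2F2 does so in club cells, the secretory cells of the small airways. Club cells carry much of the lung's foreign-compound metabolism and secrete small proteins of the secretoglobin family. Interferon-induced genes form the antiviral program of cells: interferon receptors act through STAT and IRF transcription factors, which bind a DNA element rich in GAAA repeats in the promoters of their targets. Signals of tissue damage, such as interleukin 6, act on a second program, the acute phase response.

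The values were log2 array signals, and 11406 genes passed a filter on low signal. A response is the mean of the 40 ppm arrays minus the mean of the air arrays of the same strain, in log2 units with its standard error (n = 5 arrays per group), and a gene was called when limma's test gave a Benjamini-Hochberg adjusted p under 0.05. Array medians lay between 4.24 and 4.29 in CD-1 and between 4.53 and 4.60 in WT. This shift between strains cancels in a response, so levels are compared here only within a strain. Sftpc, the surfactant protein of alveolar type 2 cells, had mean log2 signals of 13.68 to 13.86 in the 4 groups, near the highest deposited value of 13.89. Each group thus held alveolar RNA, which does not show that an array held lung alone. In bulk tissue, fewer cells of a type and less RNA per cell cannot be told apart.

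Some arrays stood apart. CD-1 40 ppm replicate 4 shifted by a median of 1.39 over the 126 genes that were up at least 2-fold when WT was fitted alone. The other 4 CD-1 40 ppm arrays shifted by 0.06 to 0.32 over these genes, and the 5 WT 40 ppm arrays, which had been used to choose them, by 1.34 to 1.55. Over the 56 genes down at least 2-fold in WT, the same CD-1 array shifted by -0.50, the other CD-1 arrays by -0.34 to 0.05 and the WT arrays by -1.43 to -0.90. The other arrays that stood apart, CD-1 0 ppm replicate 4, WT 0 ppm replicate 1 and WT 40 ppm replicate 3, were high in skeletal muscle markers (list means 2.89 to 5.43 above the mean of their strain's air arrays) and in squamous epithelium markers (3.59 to 4.35). CD-1 40 ppm replicate 4 was singled out because it moved like the WT arrays on genes that rose in WT. Leaving it out therefore favours larger differences between the strains. Differences called only without it follow in part from that choice. Counts over all genes are given with and without the 4 arrays that stood apart. For lists and single genes this is done for many of the results that moved, not for all.

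**Figure D1:**
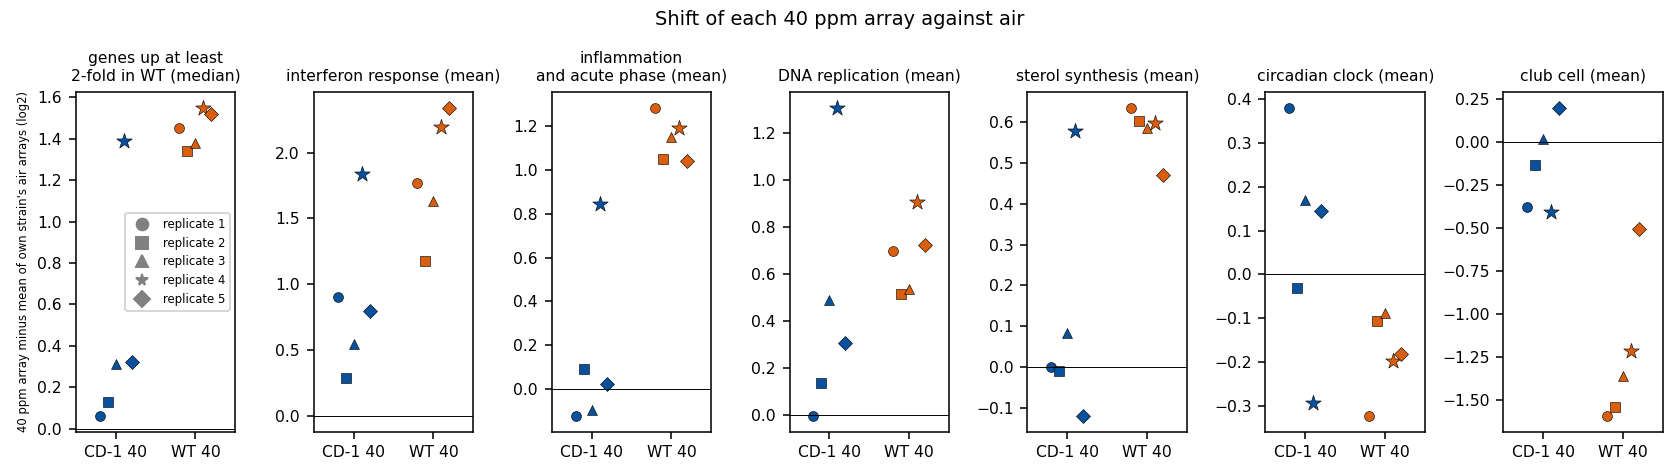
Shift of each array at 40 ppm against the mean of its own strain's air arrays (vertical axis, log2 units), with CD-1 in blue and WT in orange and 1 marker shape per replicate number. In CD-1, replicate 4 (star) reached 1.39 on the genes up in WT and 0.84 on the inflammation list, where the other 4 CD-1 arrays stayed at or below 0.32 and 0.09.

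Cyp2f2, the styrene-oxidizing enzyme of club cells, was lowered by the exposure in WT and not detectably in CD-1. The WT air arrays read 13.19, 13.27, 13.26, 13.20 and 13.22, and the WT 40 ppm arrays 12.37, 12.13, 12.04, 12.17 and 12.59, with no overlap. The CD-1 air arrays read 13.01, 12.90, 13.06, 13.14 and 12.97, and the CD-1 40 ppm arrays 12.85, 12.93, 12.93, 12.50 and 12.96. These CD-1 groups overlapped, and the lowest of the exposed arrays was replicate 4. Cyp2f2 fell by 0.97 ± 0.10 in WT (adjusted p = 1.83e-06) and its CD-1 change was -0.18 ± 0.10 (adjusted p = 0.875, 95% interval -0.38 to 0.02). The difference between the responses, 0.79 ± 0.14, passed the test (adjusted p = 0.0042) and was 0.88 ± 0.12 without CD-1 40 ppm replicate 4.

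At 40 ppm many genes were called in the WT lung and few in the CD-1 lung. In WT 1057 genes rose and 967 fell, 9.27% and 8.48% of those tested, which is the background for the WT counts of each list below. In CD-1 3 rose and 1 fell, 0.0263% and 0.00877% (0.0351% in either direction), and 685 genes (6.01%) had an unadjusted p under 0.05. The median standard error of a response was 0.096, and that of a difference 0.135. The median SD of a gene was 0.15 in CD-1 air and 0.168 in CD-1 at 40 ppm. In WT it was 0.108 in air and 0.13 at 40 ppm. The fit used 1 spread per gene for both strains, and few CD-1 calls do not show that few genes changed. The CD-1 count moved with the arrays used to estimate the spread. It was 37 up and 7 down with all 80 arrays of the series in the fit, 13 and 4 with all doses of the 2 strains, and 0 and 1 when CD-1 was fitted alone. The difference itself was called for 192 genes (1.68%): for 94 the response was higher in CD-1 than in WT (0.824%) and for 98 it was lower (0.859%). Leaving out CD-1 40 ppm replicate 4, which favours larger differences, gave counts of 389 (3.41%) and 430 (3.77%) that included all of the 94 and 98. Without the 3 arrays high in skeletal muscle markers the counts were 35 (0.307%) and 57 (0.5%). The WT counts were 1314 (11.5%) and 1140 (9.99%) in the first of these settings and 791 (6.93%) and 633 (5.55%) in the second. Without the 3 arrays the difference was no longer called for Calcb, Cbfb, Tmco3, Tango6, Timp1, Oasl1, Mx1, Acsm1, Ces1f, Per3, Hmox1, Scgb3a2, Cbr2, Atf4, Gstm1, Idi1, Tppp3 and Ugt1a6a (adjusted p 0.0682 to 0.146), each of which is described with its values in what follows.

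The called differences were almost all genes that changed in WT and moved less in CD-1. Of the 94 with the higher CD-1 response, 91 had fallen in WT (8.48% over all genes) and 3 were called in neither strain. Of the 98 with the lower CD-1 response, 97 had risen in WT (9.27% over all genes) and 1 was called in neither. The median CD-1 response was 0.01 in each set, against -0.59 and 0.84 in WT. With few genes called in CD-1, choosing genes by the difference favours those with a large WT response. These counts and medians therefore follow in part from the choice. No gene was called in both strains with opposite signs. The 4 genes whose difference passed with neither strain called, named after their values were seen, were Calcb, Cbfb, Tmco3 and Tango6. Calcb, which encodes a calcitonin gene-related peptide, had responses of -0.81 ± 0.27 in CD-1 and 0.76 ± 0.27 in WT (difference -1.58 ± 0.38, adjusted p = 0.0401). The differences of Cbfb, Tmco3 and Tango6 were 0.30, 0.40 and 0.48.

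Genes called in WT leaned the same way in CD-1, at a smaller size, and much of that lean rested on CD-1 40 ppm replicate 4. Since the strains shared no array, the CD-1 values had no part in a WT mean, although both strains gave 1 estimate of the spread. Of the 1057 genes that rose in WT, 832 (78.7%) had a positive CD-1 response, against 54.9% of all genes tested, and their median was 0.09 in CD-1 and 0.42 in WT. Of the 967 that fell, 671 (69.4%) had a negative CD-1 response, against 45.1% of all genes tested, with medians of -0.05 and -0.39. Without CD-1 40 ppm replicate 4 these shares were 64.2% (all genes 52.8%) and 57.9% (all genes 47.2%), and the CD-1 medians 0.04 and -0.02. Among the 122 genes that rose at least 2-fold in WT, 106 were positive in CD-1 and the medians were 0.45 and 1.39. For all 122 the CD-1 response was the smaller in size, as it was for 7926 of the 11406 genes tested. Choosing genes by their WT response favours a smaller CD-1 size. Without CD-1 40 ppm replicate 4, 92 of the 122 were positive, and the CD-1 median of the 122 was 0.18. Across the 11406 genes, which are not independent replicates, the 2 responses had a Pearson correlation of 0.40, which was 0.18 without it.

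**Figure D2:**
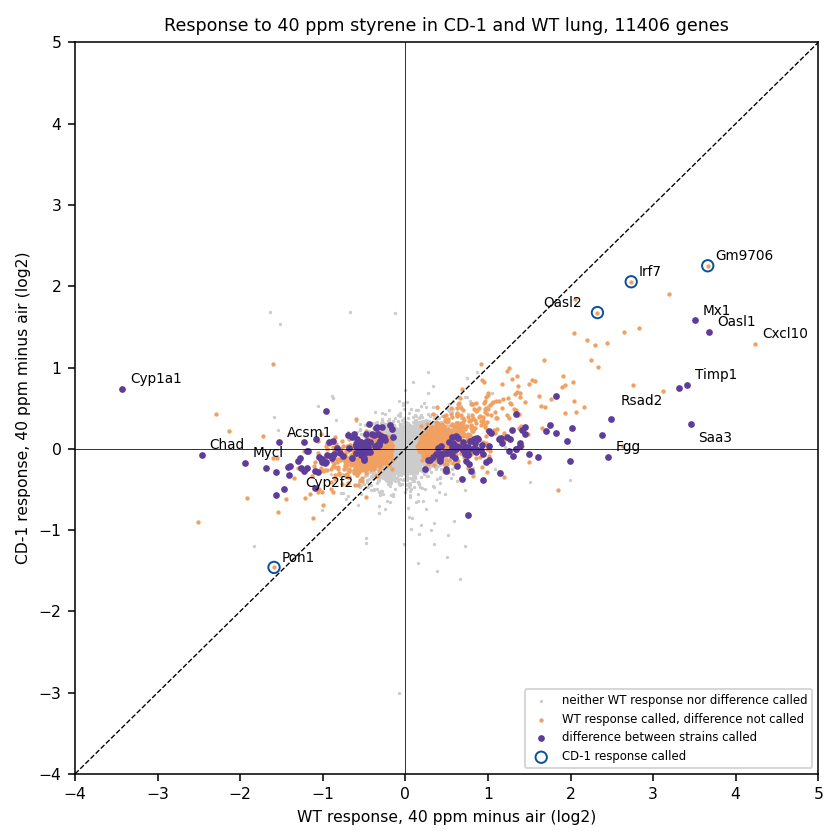
Response to 40 ppm in WT (horizontal axis) and CD-1 (vertical axis), both in log2 units, for each of 11406 genes, with the line of equal response dashed. The 192 genes whose response differed (purple) have a median CD-1 response of 0.01 in each direction, with Mx1 at 1.58 the farthest from 0, and the 4 genes called in CD-1 (blue rings) lie toward the line, with Pon1 closest to it.

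Of the genes called in both strains, 3 rose and 1 fell, which made up all of the CD-1 calls and 0.284% and 0.103% of the WT rises and falls. The gene that fell was Pon1, which encodes paraoxonase, an enzyme that hydrolyses organophosphates and lactones. Its CD-1 arrays read 10.53, 10.78, 10.65, 10.97 and 10.68 in air and 8.80, 9.32, 9.45, 8.93 and 9.81 at 40 ppm. Its WT arrays read 10.67, 10.62, 10.42, 10.68 and 10.44 in air and 8.91, 9.21, 8.95, 8.41 and 9.41 at 40 ppm. In both strains every exposed array lay below every air array, which held for 0.175% of genes in CD-1 and 8.28% in WT, while every exposed array lay above every air array for 0.491% and 10.1%. Pon1 fell by 1.46 ± 0.17 in CD-1 (adjusted p = 0.00089) and by 1.59 ± 0.17 in WT (adjusted p = 5.83e-06). The difference was 0.13 ± 0.25, with a 95% interval of -0.38 to 0.65. The CD-1 fall of Pon1 passed the test under every alternative, with adjusted p up to 0.0432.

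Irf7, the transcription factor that amplifies type I interferon production, rose in both strains. In CD-1 it read 5.55, 5.13, 4.64, 5.18 and 5.13 in air and 7.22, 6.28, 6.46, 8.57 and 7.36 at 40 ppm, with replicate 4 the highest. In WT it read 6.15, 5.67, 5.81, 5.81 and 6.11 in air and 8.45, 8.03, 8.53, 9.01 and 9.21 at 40 ppm. Neither pair of groups overlapped. The rise was 2.06 ± 0.32 in CD-1 (4.16-fold, adjusted p = 0.0179) and 2.74 ± 0.32 in WT (6.66-fold, adjusted p = 1.15e-05). Without CD-1 40 ppm replicate 4 the CD-1 rise was 1.71 (adjusted p = 0.00841).

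Oasl2, an antiviral relative of the oligoadenylate synthetases, had CD-1 signals of 6.18, 5.90, 5.08, 5.81 and 6.13 in air and 7.53, 6.81, 6.99, 8.63 and 7.50 at 40 ppm. In WT these were 6.85, 7.11, 6.72, 6.57 and 6.58 in air and 8.81, 8.56, 8.99, 9.44 and 9.66 at 40 ppm. The exposed arrays of each strain all lay above its air arrays. Oasl2 rose by 1.68 ± 0.28 in CD-1 (adjusted p = 0.0302) and by 2.33 ± 0.28 in WT (adjusted p = 2e-05), and the difference did not pass (-0.65 ± 0.40, 95% interval -1.49 to 0.19).

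Gm9706, a predicted gene read by a probe set whose suffix marks sequence shared with other transcripts, had the largest of the CD-1 rises. Its CD-1 signals were 6.02, 5.91, 4.95, 5.74 and 5.48 in air and 7.94, 6.54, 7.24, 9.35 and 8.28 at 40 ppm. Its WT signals were 6.36, 5.90, 5.40, 5.44 and 5.68 in air and 9.32, 8.75, 9.33, 9.76 and 9.94 at 40 ppm. The groups did not overlap in either strain. The rise was 2.25 ± 0.38 in CD-1 (adjusted p = 0.0302) and 3.66 ± 0.38 in WT (adjusted p = 2.79e-06). A second probe set of the gene moved by 0.51 in CD-1 and 0.50 in WT. The CD-1 rises of Irf7, Oasl2 and Gm9706 were not called when CD-1 was fitted alone or with array weights (adjusted p up to 0.561) or without the 3 arrays high in skeletal muscle markers (0.104, 0.155 and 0.125). Leaving out CD-1 0 ppm replicate 2 or 3 or CD-1 40 ppm replicate 1 also ended all 3 calls (adjusted p up to 0.0759).

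**Figure D3:**
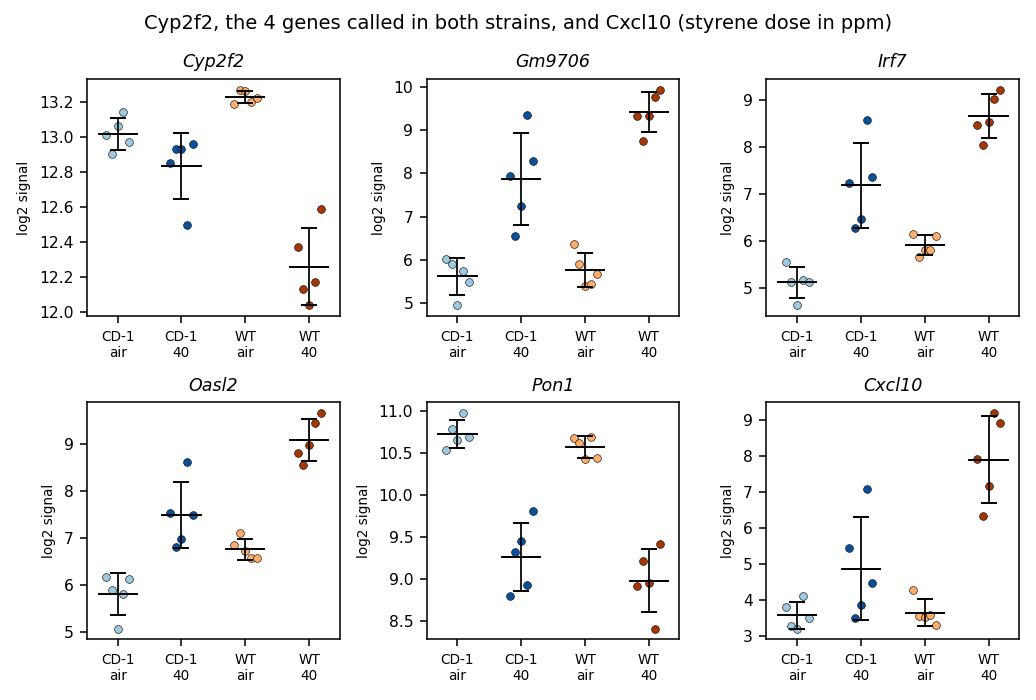
Log2 signal of Cyp2f2, of the 4 genes called in both strains and of Cxcl10 on each of the 20 arrays (points), with the mean (bar) and SD (whiskers) of each group of 5. Pon1 falls from a mean of 10.72 to 9.26 in CD-1 and from 10.57 to 8.98 in WT, while Cyp2f2 separates air from 40 ppm only in WT.

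Interferon-induced genes leaned upward in both strains, by more in WT. Of 27 members tested, 23 rose in WT and 2, Irf7 and Oasl2, in CD-1, where 26 were positive and 21 had an unadjusted p under 0.05 (background 3.95% for a rise). The median response was 0.75 in CD-1 and 1.57 in WT, against 0.01 and -0.01 over all genes tested. For 3 members, Rsad2, Oasl1 and Mx1, the rise was smaller in CD-1 by the test of the difference, where 0.859% of all genes were lower. Without CD-1 40 ppm replicate 4 the CD-1 median was 0.53 and the difference was called for 13 members, where 3.77% of all genes were called in that direction. By array, the list mean at 40 ppm ran from 0.29 to 1.84 in CD-1, with a median of 0.80, and from 1.18 to 2.34 in WT. Every CD-1 40 ppm array lay above the air range of -0.34 to 0.22.

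Targets of the interferon-activated factors often carry, near the start site, a core of TTTC, any 2 bases and TTTC again, or its reverse complement. The windows searched were RefSeq's (GRCm38.p6), from 250 bases before to 50 after a start, and both strands were read. A match was present in 3.44% of 32851 windows, in 3.69% of the genes tested, in 6.70% of those that rose in WT and in 11 of the 20 interferon list members with a window (55.0%). It was present in 26 of 141 genes (18.4%) that rose in WT and had a positive CD-1 response at an unadjusted p under 0.05. Among genes whose difference was called, it was present in 7 of the 75 with the lower CD-1 response and in 0 of the 73 with the higher one. The matches are shown for 7 interferon list members and for Saa3, the gene with the largest such difference because the strains' responses of these genes are compared here. Letters run 5′ to 3′ on the gene's strand and capitals mark a core. In the Irgm1 window another core overlaps the marked one and runs on in lower case.
Cxcl10: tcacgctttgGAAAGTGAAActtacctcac
Rsad2: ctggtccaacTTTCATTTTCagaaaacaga
Ifit1: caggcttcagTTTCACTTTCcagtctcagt
Ifit3: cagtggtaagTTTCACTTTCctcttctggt
Stat2: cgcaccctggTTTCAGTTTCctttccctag
Irgm1: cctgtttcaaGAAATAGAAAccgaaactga
Gbp2: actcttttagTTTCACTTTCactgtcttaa
Saa3: gttatcttctGAAAGAGAAAttatgggtaa

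These windows lie at chr5:92349083-92349112 (Cxcl10, minus strand), chr12:26456553-26456582 (Rsad2, minus), chr19:34640775-34640804 (Ifit1, plus) and chr19:34583363-34583392 (Ifit3, plus). The others are at chr10:128270266-128270295 (Stat2, plus), chr11:48871431-48871460 (Irgm1, minus), chr3:142620594-142620623 (Gbp2, plus) and chr7:46715782-46715811 (Saa3, minus). The same core stood upstream of genes with very unlike responses. Gbp2, an interferon-induced GTPase, had responses of -0.01 ± 0.16 in CD-1 and 0.22 ± 0.16 in WT. The windows of Irf7, Oasl2 and Oasl1 held no match. A match is a description of letters and is not evidence of binding.

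Cxcl10, the chemokine that draws activated T cells, rose in WT. In WT it read 4.28, 3.58, 3.53, 3.59 and 3.33 in air and 7.91, 6.32, 7.16, 9.18 and 8.90 at 40 ppm. In CD-1 it read 3.81, 3.30, 3.22, 4.12 and 3.51 in air and 5.44, 3.52, 3.87, 7.09 and 4.47 at 40 ppm. The CD-1 groups overlapped and replicate 4 was the highest. The WT air mean of 3.66 and the CD-1 air mean of 3.59 lay below the signal minimum of 4.28, so no fold is given. The WT rise was 4.23 ± 0.56 (adjusted p = 5.17e-05), and the CD-1 response was 1.29 ± 0.56 (adjusted p = 0.804). The difference of -2.95 ± 0.79 missed the threshold (adjusted p = 0.0636) and passed it without CD-1 40 ppm replicate 4 (-3.50 ± 0.65, adjusted p = 0.00354).

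Rsad2, the antiviral enzyme viperin, rose in WT from 7.60, 7.31, 6.53, 6.74 and 7.07 in air to 10.45, 9.56, 10.28, 10.69 and 10.84. Its CD-1 arrays read 7.82, 8.14, 7.18, 8.12 and 7.82 in air and 8.87, 7.85, 7.59, 9.75 and 8.77 at 40 ppm, and these overlapped. The WT rise was 3.31 ± 0.33 (9.95-fold) and the CD-1 response 0.75 ± 0.33 (adjusted p = 0.806). The difference was -2.56 ± 0.47 (adjusted p = 0.00814), and 2 other probe sets of the gene gave -2.61 and -2.85.

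Oasl1, an inhibitor of Irf7 translation, differed in size and not in direction. Its CD-1 arrays read 4.04, 4.08, 3.89, 4.06 and 4.01 in air and 5.54, 4.49, 5.21, 7.24 and 4.81 at 40 ppm, all exposed arrays above all air arrays. Its WT arrays read 4.78, 3.99, 3.93, 4.46 and 4.18 in air and 7.78, 7.30, 7.61, 8.31 and 8.74 at 40 ppm. The CD-1 response was 1.44 ± 0.37 (adjusted p = 0.281), the WT rise 3.68 ± 0.37 and the difference -2.24 ± 0.52 (adjusted p = 0.0352). The antiviral GTPase gene Mx1 had a CD-1 response of 1.58 ± 0.34 (adjusted p = 0.107), a WT rise of 3.51 ± 0.34 and a difference of -1.93 ± 0.48 (adjusted p = 0.0449). The air means of Oasl1 in both strains (4.02 and 4.27) and of Mx1 in CD-1 (3.93) lay below the signal minimum. Leaving out any 1 of 18 arrays ended the Mx1 call (adjusted p up to 0.086) and any 1 of 13 the Oasl1 call (up to 0.0661). The responses of the sensor gene Dhx58 were 1.27 ± 0.25 in CD-1 (adjusted p = 0.0734) and 2.30 ± 0.25 in WT, without overlap of air and exposed arrays in either strain.

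Of 18 acute phase and inflammation genes tested, 10 rose in WT and none in CD-1, and for 6 the response was lower in CD-1, where 0.859% of all genes were. The list medians were 0.10 in CD-1 and 0.58 in WT. By array, the list mean was 1.04 to 1.28 in the 5 WT 40 ppm arrays. In CD-1 it was 0.84 in replicate 4 and -0.12 to 0.09 in the other 4, within the air range of -0.22 to 0.18. Without that array the response was lower for 9 members, where 3.77% of all genes were.

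Saa3, an acute phase protein made in inflamed tissue, had the largest negative difference. In WT it read 5.64, 5.36, 4.67, 4.84 and 4.96 in air and 9.34, 8.75, 8.23, 8.14 and 8.28 at 40 ppm. In CD-1 it read 6.10, 6.37, 5.93, 6.77 and 6.62 in air and 6.36, 6.09, 5.48, 9.05 and 6.32 at 40 ppm. Among the CD-1 40 ppm arrays, replicate 4 stood above all other CD-1 arrays and the other 4 lay at or below the CD-1 air median of 6.37. The WT rise was 3.46 ± 0.45, the CD-1 response 0.30 ± 0.45 (adjusted p = 0.96) and the difference -3.15 ± 0.64 (adjusted p = 0.0157). Without replicate 4 the difference was -3.75 ± 0.35.

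Timp1, an inhibitor of matrix metalloproteinases, showed the same array pattern. Its CD-1 signals were 6.32, 6.25, 6.27, 6.31 and 6.32 in air and 6.22, 6.31, 6.53, 9.69 and 6.67 at 40 ppm. Its WT signals were 7.03, 6.50, 6.23, 6.49 and 6.50 in air and 10.29, 10.25, 9.87, 9.79 and 9.60 at 40 ppm. The difference was -2.62 ± 0.63 (adjusted p = 0.0385) with all arrays and -3.27 ± 0.20 (adjusted p = 4.14e-08) without CD-1 40 ppm replicate 4. With any 1 of 16 other arrays left out, the call was lost (adjusted p up to 0.0741).

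For Fgg, the gamma chain of the clotting protein fibrinogen, replicate 4 lay with the other CD-1 arrays. The WT signals were 4.55, 4.76, 3.79, 4.59 and 4.45 in air and 7.09, 7.28, 6.94, 6.49 and 6.62 at 40 ppm. The CD-1 signals were 3.71, 4.04, 3.82, 4.17 and 3.23 in air and 3.77, 3.60, 3.91, 3.67 and 3.53 at 40 ppm, below the signal minimum of 4.28 throughout. The WT rise was 2.45 ± 0.19 (5.47-fold) and the CD-1 response -0.10 ± 0.19, with a difference of -2.55 ± 0.26 (adjusted p = 4.48e-05). Both CD-1 means also lay below the minimum for the monocyte chemokine genes Ccl7 (difference -2.22 ± 0.26) and Ccl2 (-1.76 ± 0.30), for Il6, which encodes interleukin 6 (-1.87 ± 0.24), and for AA467197 (-2.14 ± 0.21) and Sectm1b (-2.13 ± 0.34). This held for 19 of the 98 genes with the lower CD-1 response. Socs3, a feedback inhibitor of interleukin 6 signalling, was above the minimum and rose by 1.45 ± 0.12 in WT against 0.27 ± 0.12 in CD-1 (difference -1.18 ± 0.18, adjusted p = 0.00166).

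**Figure D4:**
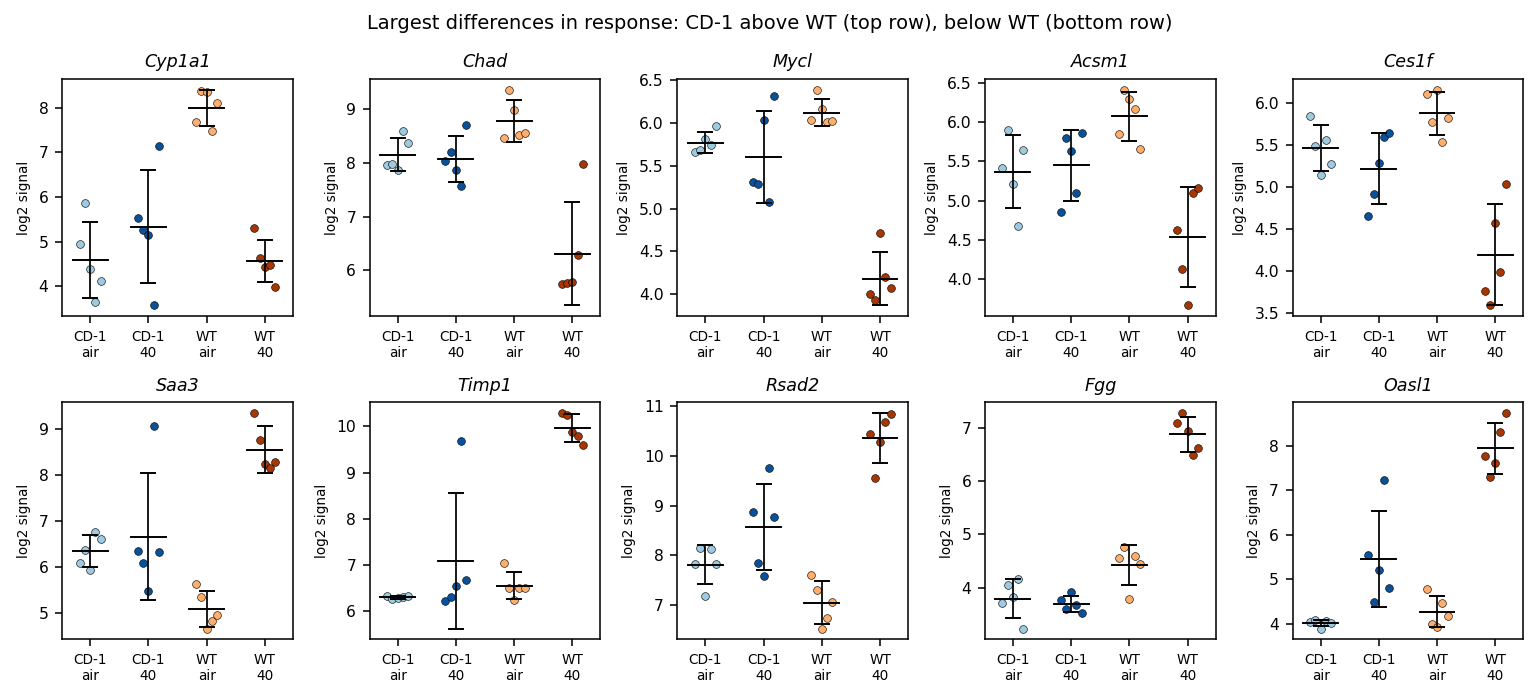
Log2 signal on each of the 20 arrays (points) with the mean (bar) and SD (whiskers) of each group of 5, for the 5 genes with the largest difference in each direction. In the bottom row the WT groups separate for all 5 genes, and in CD-1 only Oasl1 does. The CD-1 40 ppm point at 9.05 for Saa3 and at 9.69 for Timp1 is replicate 4.

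Immediate early genes are transcription factors and regulators switched on within minutes of a stimulus. Of 14 members tested, 6 rose in WT and none in CD-1, with medians of 0.27 and -0.02. The response was lower in CD-1 for Egr1, Atf3, Myc and Junb, where 0.859% of all genes were. Egr1 read 7.69, 7.43, 7.64, 7.18 and 7.42 in CD-1 air and 7.03, 7.39, 7.41, 7.59 and 7.44 in CD-1 at 40 ppm. WT arrays gave 8.26, 7.37, 7.09, 7.30 and 7.35 in air and 9.34, 9.04, 9.30, 8.93 and 8.81 at 40 ppm. The WT groups did not overlap, although replicate 1, one of the arrays high in skeletal muscle markers, stood above the other air arrays. Egr1 rose by 1.61 ± 0.17 in WT and its CD-1 response was -0.10 ± 0.17 (difference -1.71 ± 0.24, adjusted p = 0.00138). The differences were -1.39 ± 0.24 for Atf3, -0.92 ± 0.14 for Myc, the growth regulator, and -0.78 ± 0.16 for Junb.

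Stress and antioxidant genes followed. Of 21 NRF2 and glutathione genes, 8 rose and 2 fell in WT (9.27% and 8.48% over all genes). None was called in CD-1, and 3 had a lower and 1 a higher response in CD-1 (0.859% and 0.824% over all genes). Hmox1, the heme-degrading enzyme, read 6.00, 6.18, 6.10, 5.62 and 6.51 in WT air and 8.06, 8.21, 7.95, 7.49 and 7.84 in WT at 40 ppm. CD-1 arrays gave 5.90, 5.47, 6.12, 6.07 and 6.63 in air and 6.48, 6.18, 6.11, 6.92 and 5.48 at 40 ppm, which overlapped. The rise in WT was 1.82 ± 0.23, the CD-1 response 0.20 ± 0.23 and the difference -1.63 ± 0.33 (adjusted p = 0.0154). Gclc, the catalytic subunit of the rate-limiting enzyme of glutathione synthesis, rose by 0.62 ± 0.09 in WT and differed by -0.62 ± 0.12, and Osgin1 differed by -0.77 ± 0.17. Gstm1, a glutathione transferase, fell by 0.44 ± 0.07 in WT and differed by 0.41 ± 0.10 (adjusted p = 0.0443). Nqo1, a quinone reductase, separated air from 40 ppm in both strains, with 0.56 ± 0.13 in CD-1 (adjusted p = 0.203) and 1.06 ± 0.13 in WT.

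Of 19 unfolded protein response and ATF4 genes, 4 rose in WT (9.27% over all genes) and none in CD-1. Atf3 and Atf4 had the lower CD-1 response (0.859% over all genes). Atf4, the transcription factor of the amino acid stress response, rose by 0.43 ± 0.06 in WT against 0.04 ± 0.06 in CD-1 (difference -0.39 ± 0.09, adjusted p = 0.0352). Of 10 heat shock genes 1 rose in WT, near the 9.27% of all genes that did. It was Hspa1b, the inducible chaperone (2.64 ± 0.67), and its difference of -2.60 ± 0.95 did not pass (adjusted p = 0.171). Of 15 glucocorticoid-responsive genes 4 rose in WT, or 1 without the 3 arrays high in skeletal muscle markers, and none differed. Of 12 p53 targets 3 rose and 2 fell in WT, and none differed. Without CD-1 40 ppm replicate 4 the response was lower in CD-1 for 1 glucocorticoid-responsive gene and 1 p53 target, where 3.77% of all genes were.

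Of 15 sterol synthesis genes, 11 rose in WT (9.27% over all genes) and none in CD-1, with medians of 0.58 and 0.07. Hmgcs1, the enzyme that makes the substrate of HMG-CoA reductase, rose by 0.85 ± 0.14 in WT and had a CD-1 response of 0.00 ± 0.14 (difference -0.85 ± 0.20, adjusted p = 0.0361), with both CD-1 means below the signal minimum. Idi1, an isomerase of the isoprenoid steps, differed by -0.61 ± 0.15 (adjusted p = 0.0475). The list mean in CD-1 at 40 ppm was 0.58 in replicate 4 and -0.12 to 0.08 in the other 4 arrays, against 0.47 to 0.64 in WT. Without that array the response was lower in CD-1 for 9 members, where 3.77% of all genes were. Of 17 matrix and remodelling genes, 7 rose and 1 fell in WT, or 3 and 0 without the 3 arrays high in skeletal muscle markers. Timp1 was the member whose difference passed with all arrays. Tnc, the wound matrix protein tenascin C, rose by 1.42 ± 0.27 in WT with a CD-1 response of 0.04 ± 0.27 (difference adjusted p = 0.0711). Without CD-1 40 ppm replicate 4 that difference passed (-1.57 ± 0.37, adjusted p = 0.0158).

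**Figure D5:**
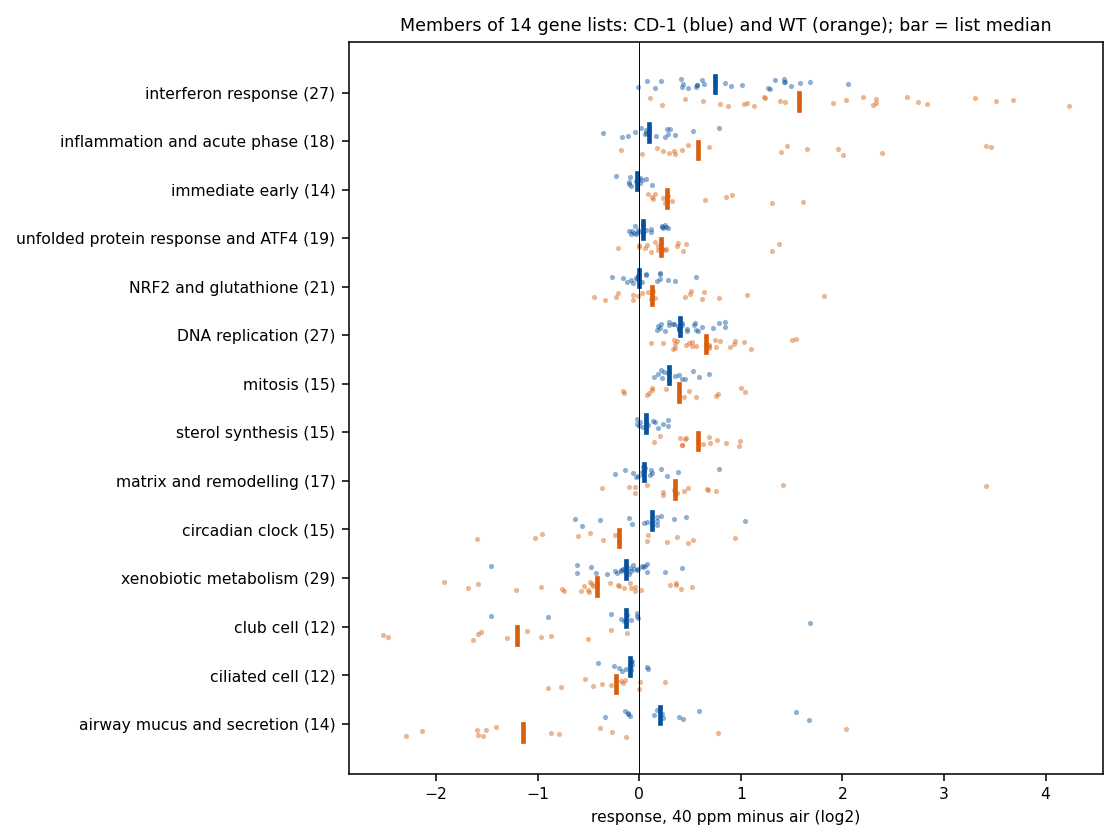
Response to 40 ppm (horizontal axis, log2 units) of each tested member of 14 gene lists in CD-1 (blue points) and WT (orange points), with the list median as a bar and the number tested in parentheses. Of the 35 lists run, these 14 are drawn, and in each the CD-1 bar lies nearer 0 than the WT bar, reaching 0.75 for interferon response and 0.40 for DNA replication. For the clock, mucus and immediate early lists the 2 bars lie on opposite sides of 0. Among the gene lists not drawn, the CD-1 and WT medians were -0.03 and -0.02 for PPAR targets, -0.03 and -0.01 for p53 targets and both -0.04 for aryl hydrocarbon receptor targets. Some marker lists not drawn had the CD-1 median farther from 0: skeletal muscle (-1.17 and 0.39 in WT), squamous epithelium (-0.51 and 0.16) and erythroid (-0.24 and 0.10). So did the neutrophil (0.09 and -0.03), mesothelial (-0.34 and -0.32) and alveolar type 1 lists (-0.03 and 0.01). In the other marker lists not drawn it lay nearer 0.

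Cyp1a1, a P450 induced through the aryl hydrocarbon receptor, had the largest difference of all genes. Among WT mice the signals were 7.68, 8.38, 8.34, 7.47 and 8.11 in air and 5.31, 4.63, 4.43, 4.47 and 3.99 at 40 ppm. Among CD-1 mice the signals were 4.94, 5.87, 4.40, 3.64 and 4.13 in air and 5.54, 5.26, 5.16, 3.58 and 7.14 at 40 ppm. The CD-1 air mean of 4.60 lay near the signal minimum, as did the WT mean at 40 ppm of 4.56. Cyp1a1 fell by 3.43 ± 0.48 in WT (adjusted p = 8.13e-05), its CD-1 response was 0.74 ± 0.48 (adjusted p = 0.907), and the difference was 4.17 ± 0.68 (adjusted p = 0.0027). Of the 5 aryl hydrocarbon receptor targets tested, Nqo1 rose and Cyp1a1 fell in WT. Cyp1b1 had responses of -0.18 ± 0.19 in CD-1 and -0.15 ± 0.19 in WT.

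Chad, which encodes the matrix protein chondroadherin, fell in WT by 2.47 ± 0.34. Its WT signals were 8.46, 9.36, 8.98, 8.52 and 8.56 in air and 5.74, 5.77, 5.79, 6.28 and 7.97 at 40 ppm, with replicate 5 the highest. Its CD-1 signals were 7.96, 7.97, 7.87, 8.59 and 8.37 in air and 8.03, 8.20, 7.87, 7.57 and 8.71 at 40 ppm. The CD-1 response was -0.08 ± 0.34 and the difference 2.39 ± 0.47 (adjusted p = 0.0134).

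Mycl, a transcription factor of the MYC family, read 6.03, 6.39, 6.16, 6.01 and 6.02 in WT air and 4.00, 3.93, 4.71, 4.20 and 4.07 in WT at 40 ppm. Its CD-1 arrays read 5.66, 5.68, 5.81, 5.74 and 5.97 in air and 5.31, 5.29, 6.03, 5.08 and 6.31 at 40 ppm. The exposed CD-1 arrays scattered to both sides of the air arrays. Mycl fell by 1.94 ± 0.19 in WT and differed by 1.77 ± 0.27 (adjusted p = 0.00187).

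Acsm1, a mitochondrial medium-chain acyl-CoA synthetase, read 5.84, 6.41, 6.29, 6.16 and 5.66 in WT air and 4.63, 4.13, 3.67, 5.10 and 5.16 in WT at 40 ppm. Its CD-1 arrays read 5.41, 5.90, 5.21, 4.68 and 5.64 in air and 4.85, 5.79, 5.63, 5.10 and 5.86 at 40 ppm, which overlapped. The difference was 1.61 ± 0.39 (adjusted p = 0.0419), and it was lost with any 1 of 13 arrays left out (up to 0.08).

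Ces1f, a carboxylesterase, read 6.11, 5.77, 6.16, 5.54 and 5.82 in WT air and 3.76, 3.60, 4.57, 3.99 and 5.04 in WT at 40 ppm. The CD-1 signals were 5.85, 5.49, 5.14, 5.56 and 5.27 in air and 4.66, 4.92, 5.29, 5.59 and 5.64 at 40 ppm. The WT groups separated and the CD-1 groups overlapped. The difference was 1.45 ± 0.34 (adjusted p = 0.0367), lost with any 1 of 12 arrays left out (up to 0.0663). The next largest were those of the clock gene Per3 (1.42 ± 0.34), Ankrd63 (1.31 ± 0.20), Dcdc2a (1.28 ± 0.22), the neuropeptide gene Gal (1.21 ± 0.18) and Elapor1 (1.20 ± 0.14). All 5 fell in WT. Both CD-1 means of Ankrd63, Dcdc2a and Gal lay below the signal minimum, and how far a fall could be read there was not tested. Elapor1 stood at 8.90 in CD-1 air and 8.67 at 40 ppm.

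Of 29 genes of foreign-compound metabolism, 14 fell and 1 rose in WT and Pon1 alone was called in CD-1, with medians of -0.42 and -0.13, and the response was higher in CD-1 for 5 where 0.824% of all genes were. These were Cyp2f2, Ces1f, the carboxylesterase gene Ces1d (-0.76 ± 0.07 in WT and -0.08 ± 0.07 in CD-1), the glucuronosyltransferase gene Ugt1a6a (-0.48 ± 0.10 and 0.08 ± 0.10) and the carbonyl reductase gene Cbr2 (-0.50 ± 0.06 and -0.13 ± 0.06). Aox3, an aldehyde oxidase, fell by 1.21 ± 0.12 in WT and came next to Pon1 in CD-1 (-0.61 ± 0.12, adjusted p = 0.0734). The CD-1 groups of Aox3 overlapped. Its arrays read 9.76, 9.39, 9.27, 9.57 and 9.55 in CD-1 air and 8.84, 9.14, 8.77, 8.47 and 9.27 in CD-1 at 40 ppm.

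Of 12 club cell markers, 10 fell in WT and Pon1 alone in CD-1. For 5 (Cckar, Cyp2f2, Chad, Scgb3a2 and Cbr2) the response was higher in CD-1, where 0.824% of all genes were. Without the 3 arrays high in skeletal muscle markers it was higher for 3, where 0.307% of all genes were. The medians were -1.20 in WT and -0.13 in CD-1, where 11 of the 12 were negative. By array, the list mean at 40 ppm was -1.59 to -0.50 in WT and -0.40 to 0.20 in CD-1, within the CD-1 air range of -0.44 to 0.34. Cckar, a cholecystokinin receptor, read 9.12, 9.19, 9.09, 9.25 and 9.07 in WT air and 8.14, 7.68, 7.48, 7.93 and 7.98 in WT at 40 ppm. CD-1 arrays gave 8.92, 8.75, 8.99, 8.94 and 8.81 in air and 8.27, 8.63, 8.90, 9.05 and 8.83 at 40 ppm. The WT groups separated by more than their spread and the CD-1 groups overlapped (difference 1.15 ± 0.18, adjusted p = 0.00187). Scgb3a2, a secretoglobin, fell by 1.10 ± 0.13 in WT with a CD-1 response of -0.28 ± 0.13 (difference 0.82 ± 0.18, adjusted p = 0.0268). Lypd2, the marker with the largest WT fall, fell by 2.52 ± 0.37 and had a CD-1 response of -0.90 ± 0.37 (adjusted p = 0.751). Scgb1a1, the major club cell secretoglobin, changed by -0.12 in WT and -0.02 in CD-1 and was called in neither.

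Of 12 ciliated cell markers, 4 fell in WT (8.48% over all genes) and none in CD-1. The response of Tppp3 was higher in CD-1 (0.46 ± 0.10, adjusted p = 0.0265), where 0.824% of all genes were. Without CD-1 40 ppm replicate 4 the response was higher in CD-1 for 3, where 3.41% of all genes were. Of 14 airway mucus and secretion genes, 4 fell and 2 rose in WT and none was called in CD-1 or for the difference. Without that array the response was higher in CD-1 for 1 of them and lower for 2 (3.41% and 3.77% over all genes). Muc5b, the main airway mucin, fell by 2.14 ± 0.54 in WT and had a CD-1 response of 0.22 ± 0.54 (difference adjusted p = 0.111). The list mean varied widely in air, from -0.65 to 0.65 in CD-1 and from -0.89 to 0.78 in WT. Markers of other cell types gave few calls, all in WT. Kdr and Tie1 of 10 endothelial markers fell by 0.45 and 0.38, and Siglecf of 10 macrophage markers fell by 0.88. Acta2 and Des of 6 smooth muscle and pericyte markers rose by 0.77 and 0.48, Sftpd of 8 alveolar type 2 markers by 0.28 and Sprr1a of 3 squamous epithelium markers by 1.84 ± 0.63. No difference was called for these 7 with all arrays. Without CD-1 40 ppm replicate 4 it was called for Kdr, Tie1 and Siglecf, all higher in CD-1 (adjusted p 0.0297 to 0.0415). It was then also called for Acta2 and Sftpd, lower in CD-1 (0.0276 and 0.00623). Without the 3 arrays high in skeletal muscle markers, Tie1, Des and Sftpd were not called in WT (adjusted p 0.0823 to 0.123). With all arrays, none of the alveolar type 1, fibroblast, neutrophil, B cell, or T and NK cell markers was called in any of the 3 comparisons, whose unadjusted counts over all genes were 685, 3579 and 1877. The neutrophil list means at 40 ppm ran from -0.22 to 0.54 in CD-1 and from -0.17 to 0.08 in WT.

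Clock genes were, of the 18 gene lists, the one in which the smallest share of members had the same sign in both strains. Only 2 of 15 members had the same sign in both strains. In WT 5 fell and 2 rose (8.48% and 9.27% over all genes). None was called in CD-1, and the difference passed for Per3, higher in CD-1, and Nfil3, lower (0.824% and 0.859% over all genes). Nfil3, a repressor of clock output genes, read 5.89, 6.14, 5.87, 5.64 and 6.00 in WT air and 7.16, 6.81, 6.94, 6.65 and 6.69 in WT at 40 ppm. Among CD-1 mice the signals were 5.76, 5.73, 4.80, 4.75 and 5.23 in air and 5.09, 5.05, 4.45, 5.30 and 4.44 at 40 ppm. Nfil3 rose by 0.94 ± 0.20 in WT with a CD-1 response of -0.39 ± 0.20 (difference -1.33 ± 0.28, adjusted p = 0.0215).

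Per3 read 8.18, 7.82, 7.91, 7.81 and 7.28 in WT air and 6.40, 6.83, 6.94, 6.95 and 7.10 in WT at 40 ppm. Its CD-1 arrays read 6.64, 6.97, 7.71, 7.76 and 6.96 in air and 7.90, 7.38, 8.09, 6.92 and 8.08 at 40 ppm, where replicate 4 was the lowest. Per3 fell by 0.96 ± 0.24 in WT and its CD-1 response was 0.46 ± 0.24. Its call was lost with any 1 of 14 arrays left out (adjusted p up to 0.0786), and 3 of its 4 other probe sets gave differences of 1.23 to 1.36.

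Dbp, a clock output transcription factor, spread most among the CD-1 air arrays, at 4.44, 5.59, 7.45, 8.03 and 6.80, against 7.86, 7.02, 8.19, 6.40 and 8.06 at 40 ppm. The WT signals were 8.14, 7.16, 7.57, 8.01 and 6.91 in air and 5.31, 5.85, 6.05, 6.28 and 6.28 at 40 ppm. The difference of 2.64 ± 0.72 did not pass (adjusted p = 0.0678) and passed without CD-1 40 ppm replicate 4 (2.92 ± 0.72, adjusted p = 0.0209). Without that array the difference was called for 8 of the 15 members, 6 higher and 2 lower in CD-1 (3.41% and 3.77% over all genes). No hour of death is named for any mouse, and its part in these values was not tested.

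DNA replication genes leaned upward in both strains. Of 27 members, 19 rose in WT (9.27% over all genes) and none in CD-1. In CD-1 all 27 were positive and 18 had an unadjusted p under 0.05 (background 3.95% for a rise). The medians were 0.66 in WT and 0.40 in CD-1, and no difference passed. Mcm3, a subunit of the replicative helicase, read 5.06, 5.18, 4.98, 5.03 and 5.25 in CD-1 air and 5.38, 5.73, 5.87, 6.56 and 5.64 in CD-1 at 40 ppm. WT arrays gave 5.66, 5.46, 5.50, 5.64 and 5.52 in air and 6.28, 6.00, 6.14, 6.61 and 6.17 at 40 ppm. The groups did not overlap in either strain. The responses were 0.73 ± 0.15 in CD-1 (adjusted p = 0.107) and 0.69 ± 0.15 in WT (adjusted p = 0.0045), and the difference was 0.05 ± 0.22, with a 95% interval of -0.41 to 0.50.

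The size of the CD-1 shift in this list rested on replicate 4, whose list mean was 1.31 against 0.00 to 0.49 in the other 4 arrays and 0.52 to 0.91 in WT. Without it the CD-1 median was 0.23 and the difference was called for 8 members, all lower in CD-1 (3.77% over all genes). Without the 3 arrays high in skeletal muscle markers 12 members rose in WT. Uhrf1, which maintains DNA methylation at replication, rose by 1.54 ± 0.30 in WT with a CD-1 response of 0.84 ± 0.30, and without replicate 4 its difference was -1.10 (adjusted p = 0.0039). Of 15 mitosis genes none was called in either strain or for the difference, and the medians were 0.39 in WT and 0.29 in CD-1. Without replicate 4 the CD-1 median was 0.06 and 5 members rose in WT. The mitosis list mean was 1.54 in CD-1 40 ppm replicate 4, -0.38 to 0.23 in the other CD-1 40 ppm arrays and 0.02 to 0.96 in the WT 40 ppm arrays. What sets replicate 4 apart from the other CD-1 mice was not tested.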

How the data were processed

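Whole-lung RNA of 20 mice was read on 20 arrays. The deposited log2 values came from RMA, and the submitters' processing notes also name Partek. Versions, settings and whether both strains were processed together are not given in the labels. Of 45037 probe sets, 28898 had 1 gene symbol, 551 had several and 15588 were not in the annotation used. Each of 17097 genes was read by its probe set with the highest mean. The signal minimum, 4.28, was the median of all deposited values and not a measured detection limit. The 11406 genes above it in at least 5 of the 80 arrays were tested. limma 3.58.1 in R 4.3.3 fitted 4 group means over the 20 arrays (moderated degrees of freedom 19.2), with Benjamini-Hochberg adjustment over all genes tested and a threshold of 0.05. All ± values are standard errors, and intervals are 95%. The number of arrays limits the precision, and no 2 arrays held the same values. The genes named were Cyp2f2, those called in both strains, the 10 largest called differences in each direction and members of 18 gene lists and 17 cell marker lists. These members and lists were chosen with earlier results of these data known. Calcb, Cbfb, Tmco3, Tango6 and H2-Ea were chosen after their values were seen. The scripts were tested on simulated data. The alternatives tried changed the arrays in the fit, the scaling, the filter, the probe set rule, the variance model and the replicate block, or left out arrays. The alternative without 3 arrays high in skeletal muscle markers was added after seeing the data.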

Additional observations from a re-analysis of the deposited data

Results flagged for a closer look

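In 16 of 152 groups of 5 arrays checked, 1 array lay apart from the other 4 by more than 0.71 of the group's range. Chance gives about 1 in 20 when groups are independent. These groups reuse the same 20 arrays, so their share cannot be set against that rate. CD-1 40 ppm replicate 4 was the array for Cyp2f2 (12.50, lowest), Saa3 (9.05), Timp1 (9.69), the inflammation list mean (0.845) and the median shift of genes up at least 2-fold in WT (1.39). WT 0 ppm replicate 1 was highest for Cxcl10 (4.28) and Egr1 (8.26), and CD-1 0 ppm replicate 5 for the DNA replication list mean (0.193). WT 40 ppm replicate 5 was highest for Chad (7.97) and for the median shift of genes down at least 2-fold in WT (-0.90). The skeletal muscle list mean was highest in CD-1 0 ppm replicate 4 (5.095), WT 0 ppm replicate 1 (2.887) and WT 40 ppm replicate 3 (5.429). The squamous epithelium list mean was highest in the same arrays (3.587, 4.352 and 4.25). The part of each of these arrays in the group values was not tested beyond the results without it.

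The response differed between strains by the limma test of the difference for Cyp2f2 (0.79) and for the 20 genes with the largest called differences. It was higher in CD-1 for Cyp1a1 (4.17), Chad (2.39), Mycl (1.77), Acsm1 (1.61), Ces1f (1.45), Per3 (1.42), Ankrd63 (1.31), Dcdc2a (1.28), Gal (1.21) and Elapor1 (1.20). Both CD-1 means of Ankrd63, Dcdc2a and Gal lay below the signal minimum, and how far a CD-1 fall of these could be read was not tested. It was lower in CD-1 for Saa3 (-3.15), Timp1 (-2.62), Rsad2 (-2.56), Fgg (-2.55), Oasl1 (-2.24), Ccl7 (-2.22), AA467197 (-2.14), Sectm1b (-2.13), Mx1 (-1.93) and Il6 (-1.87). Both CD-1 means of Fgg, Ccl7, AA467197, Sectm1b and Il6 lay below it too.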

How the results depend on the processing

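None of the 152 named gene results that were called changed sign under an alternative. Of the 487 not called, 125 changed sign under at least 1, such as the CD-1 response of Saa3, which was 0.30 with all arrays and -0.29 without CD-1 40 ppm replicate 4. Genes called in CD-1 numbered 13 up and 4 down with all doses of both strains in the fit and 37 and 7 with all 80 arrays, of which 13 and 4, and 34 and 5, were called in both strains. With CD-1 fitted alone, with array weights or without the 3 arrays high in skeletal muscle markers, 0 rose in CD-1 and so 0 in both strains. The count of CD-1 rises, each also called in WT, was 1 with a trended and robust variance prior and 5 with a filter by each array's own median. With the mean of all probe sets it was 5, with 2 falls, also in both strains. With all 80 arrays the difference was called for 209 genes higher and 188 lower in CD-1. With array weights 1645 genes rose and 1469 fell in WT, and 301 and 314 differed. With a fold of at least 1.5 as well, 327 rose and 204 fell in WT, and 54 had the higher response in CD-1. Without the 3 arrays 633 fell in WT, and 35 and 57 differed. Leaving out each array in turn gave 0 to 11 rises and 1 to 3 falls in CD-1, the same ranges in both strains, 815 to 1314 rises and 711 to 1140 falls in WT, and 52 to 389 higher and 56 to 430 lower responses in CD-1. The highest counts of differences came without CD-1 40 ppm replicate 4, and the lowest without WT 40 ppm replicate 3 and WT 0 ppm replicate 5. The cause of these shifts was not tested.

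Replicate numbers were not taken to pair the arrays. The correlation of same-numbered arrays ranged from -0.082 to 0.16 in CD-1 and from -0.182 to 0.186 in WT. That of other pairs ranged from -0.293 to 0.28 and from -0.365 to 0.579, so these values cannot decide whether the numbers pair arrays. With the replicate block within each strain 32 genes had the higher and 41 the lower response in CD-1, against 94 and 98 without it. With the replicate block across both strains 9 genes rose in CD-1 and in both strains, and 49 had the higher response in CD-1.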

Other observations

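H2-Ea, which encodes the alpha chain of the class II antigen-presenting molecule E, spread widely among the CD-1 air arrays, at 10.29, 6.28, 10.60, 5.97 and 10.17. The CD-1 40 ppm arrays read 5.29, 4.77, 5.81, 6.36 and 6.03. The WT arrays read 4.65 to 4.96 in air and 4.48 to 4.95 at 40 ppm. C57BL/6 mice carry a haplotype in which this gene is not expressed, and CD-1 mice, being outbred, can differ at it. The CD-1 value of -3.01 ± 0.70 did not pass limma's test (adjusted p = 0.171), although it was the lowest CD-1 response of all genes tested.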
